A study of Mus musculus with 2 samples.

Results

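The angiopoietin and TIE genes are 4 of the 32589 genes counted in single nuclei of mouse hearts. They are the ligand genes Angpt1 and Angpt2 and the receptor genes Tek, which encodes TIE2, and Tie1. They were chosen by gene symbol and not by a rule on measured values, although earlier results of these data were known. The study asked whether PD-1 blockade changes the cells of the heart, and 1 library of control hearts was compared with 1 library of PD-1 inhibitor hearts, called the treated library below. Both groups were male C57BL/6 mice that were 8 weeks old at the start and carried no stated allele. The PD-1 inhibitor group received an anti-mouse PD-1 antibody into the peritoneum at 5 mg/kg on days 1 and 14 of a cycle of 28 days, and the control group received PBS on the same days. How many hearts went into a library is not given in the sources used here. With 1 library per condition there is no replicate check, so no test was made. Every interval below is at 95% and takes in counting error alone.

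Angiopoietins are secreted ligands of TIE2, a receptor tyrosine kinase of the endothelium. Angiopoietin-1 comes mostly from cells around the vessel and activates TIE2, which signals through PI3K and AKT and keeps the vessel wall quiet and tight. Angiopoietin-2 is stored and released by endothelial cells, acts as a weak or context-dependent ligand, and also takes part in the growth of lymphatic vessels, while TIE1 binds no angiopoietin directly and forms complexes with TIE2.

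On mouse build GRCm38 with GENCODE vM21, Tek lies on chromosome 4 at 94739289 to 94874976 on the plus strand and spans 135.688 kb. Tie1 lies on the same chromosome at 118471191 to 118490061 on the minus strand and spans 18.871 kb. Angpt1 lies on chromosome 15 at 42424723 to 42676977 on the minus strand and spans 252.255 kb, and its 5′ end overlaps the antisense gene Gm17473, which had 46 control UMIs and 54 treated UMIs. Angpt2 lies on chromosome 8 at 18690263 to 18741562 on the minus strand, spans 51.3 kb and sits inside Mcph1, which runs on the opposite strand and had 375 and 266 UMIs. The strand setting of the counting is not given in the sources used here, so reads of Angpt2 and of the Mcph1 introns around it may not have been told apart. In endothelial cells Mcph1 stood at 32.7 UMIs per 1000000 (CPM) in the control library and 27.4 in the treated library.

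The sequence before the start of Tek is shown because the pattern over cell types turns on that receptor. RefSeq promoters of GRCm38.p6 were at hand for Tek and Tie1, which are 2 of the 4 members. The 250 bases before the Tek start, chr4:94739039-94739288 on the plus strand, held 51.2% G and C. The second sequence is the stretch chr4:94739315-94739338 just after the start, in which capitals mark the letters AGATAA, a core bound by GATA factors, 37 bases into the gene.
Tek upstream: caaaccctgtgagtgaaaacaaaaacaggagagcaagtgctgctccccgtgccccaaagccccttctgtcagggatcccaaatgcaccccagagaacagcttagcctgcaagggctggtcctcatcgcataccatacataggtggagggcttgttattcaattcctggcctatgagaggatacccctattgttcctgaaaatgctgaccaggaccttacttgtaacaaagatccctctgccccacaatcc
Tek start: caggagcagaAGATAAgccttgga
In windows from 250 bases before to 50 bases after the start, on both strands, AGATAA was present in 11.2% of 32851 promoters. The Tek window held none of CAGGAAG or CCGGAAG (ETS factors), GTAAACA (forkhead factors) and ACGTG (the core of a hypoxia response element), which were present in 13.3%, 8.86%, 3.65% and 19.6% of promoters. The Tie1 window held none of the 5 motifs. Its 250 bases before the RefSeq start, chr4:118489850-118490099 on the minus strand, lie mostly inside the gene as placed above. These are matches of letters in a window and say nothing of binding.

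After filtering, the control library kept 9522 nuclei and the treated library 7644, with 12103951 and 10290085 UMIs and medians of 1012 and 1055 UMIs per nucleus. Clustering gave 23 clusters, of which 22 could be named from marker genes, and the members were in none of the marker lists. Endothelial cells (ECs) numbered 2805 and 2506 nuclei, and all 10 EC markers had UMIs in them in both libraries. The libraries shared 48 barcodes, 0.471% of those of the control library and 0.602% of those of the treated library. Nuclei of T and B cells, which should lack the TIE receptors, were taken as the level that free RNA can give. They held 17 Tek UMIs (38.3 CPM, 22.3 to 61.4) in the control library and 11 (39.9 CPM, 19.9 to 71.3) in the treated library, and a UMI of Tek in 3.16% and 3.31% of their nuclei, with medians of 907.5 and 874.5 UMIs per nucleus. This pooled level is rough. Apart, T cells held 13 and 4 Tek UMIs (55.6 and 20.3 CPM) and B cells 4 and 7 (19.1 and 88.2 CPM).

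Tek, the receptor of both ligands, was highest in ECs. It stood at 843 CPM (811 to 877) in the control library and at 800.0 CPM (768 to 833) in the treated library. A UMI of Tek was found in 44.4% of control EC nuclei and 44.3% of treated ones. After each nucleus was thinned to 500 UMIs, the shares were 28.4% (26.7% to 30.1%) and 27.6% (25.9% to 29.4%), against 2.18% and 1.47% of T and B cell nuclei. Tek was thus far above the T and B cell level in ECs of both libraries, and the intervals of the EC levels overlapped.

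Tie1, the partner receptor, was found mostly in ECs. Its level there was 531 CPM (505 to 558) in the control library and 522 CPM (495 to 549) in the treated library, and ECs held 85.7% and 86.4% of all Tie1 UMIs. A UMI of Tie1 was found in 35.0% and 34.9% of EC nuclei, and in 21.7% and 19.7% after thinning. Every other named cell type had between 18.9 and 42.0 Tie1 CPM in the control library and between 0 and 88.2 in the treated library, where the ends of the range were adipocytes and glial cells with no UMI and B cells with 7 UMIs. T and B cells together had 38.3 (22.3 to 61.4) and 43.5 (22.5 to 76.0) Tie1 CPM, so outside ECs the gene was near or below the level that free RNA can give.

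Which receptor stood higher in ECs depended on the length used. Per kb of gene span, Tek had 6.22 and 5.90 CPM and Tie1 28.1 and 27.6 CPM in the control and the treated library. Per kb of exons, Tek had 179 and 169.8 CPM and Tie1 108 and 106 CPM. In nuclei thinned to 500 UMIs, Tie1 was detected in 22.7% of EC nuclei with Tek and in 21.4% of those without it in the control library, and in 23.0% and 18.4% in the treated library. With all UMIs counted, before thinning, both receptors were detected in 489 control and 442 treated EC nuclei.

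**Figure D1:**
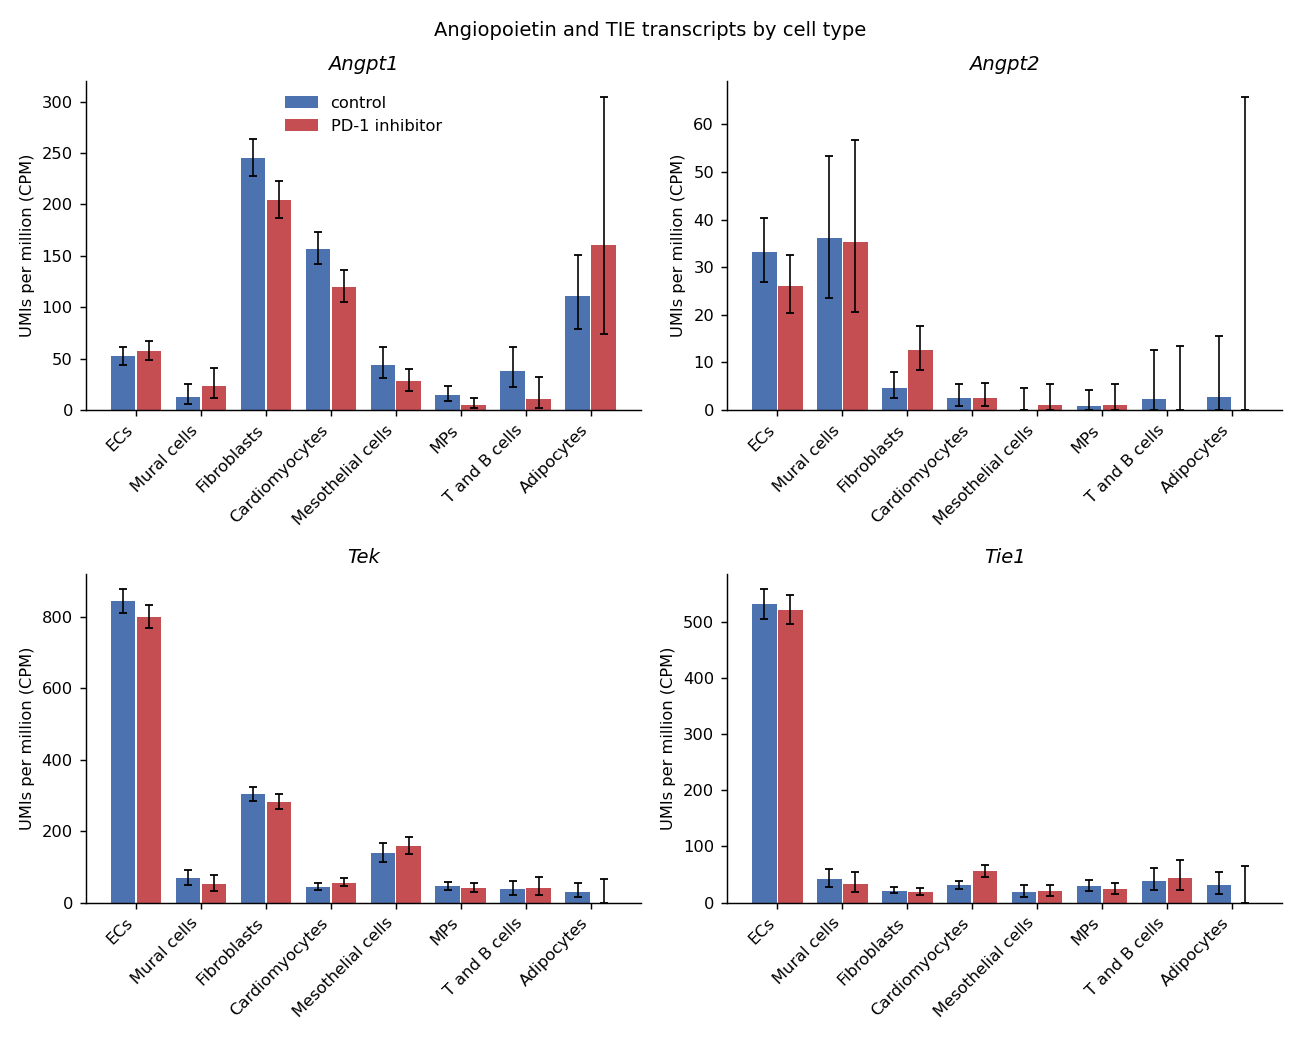
Levels of the 4 members by cell type in UMIs per 1000000 (CPM), with 1 bar per library and exact Poisson 95% intervals of counting error. Tek and Tie1 are highest in ECs, Tek has a second level in fibroblasts, and Angpt1 is highest in fibroblasts of the control library (245 CPM).

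Tek had a clear second site in fibroblasts, the collagen-producing cells of the heart. Control fibroblasts held 907 Tek UMIs and treated ones 699, or 305 CPM (285 to 325) and 282 CPM (261 to 303), which were 24.0% and 20.7% of all Tek UMIs. The thinned share of fibroblast nuclei with a UMI of Tek was 12.9% and 10.9%, against 2.18% and 1.47% of T and B cell nuclei. Tek was thus above the T and B cell level in the fibroblasts of both libraries.

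Tie1 was not raised with it. For every UMI of Tie1, fibroblasts held 14.2 UMIs of Tek (11.0 to 18.6) in the control library and 14.6 (10.9 to 19.9) in the treated library, whereas ECs held 1.59 (1.49 to 1.69) and 1.53 (1.44 to 1.64). This ratio compares cell types for the same pair of genes. Gene length drops out of it only if introns take the same part of the counts in each cell type, which was not tested. Mural cells had 1.62 and 1.56 and MPs, the nuclei with macrophage and dendritic cell markers, had 1.56 and 1.71. Cardiomyocytes had 1.42 (1.05 to 1.93) and 1.01 (0.771 to 1.32), and T and B cells had 1.00 and 0.917. The intervals of these cells lay below those of fibroblasts in both libraries.

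The Tek level of fibroblasts was 36.1% of that of ECs in the control library and 35.2% in the treated library. The 10 EC markers stood at a median of 4.60% and 4.47% of their EC level, the highest being Eng with 12.8% and 13.5%, and Tie1 stood at 4.05% and 3.71%. Among thinned fibroblast nuclei with a UMI of Tek, 74 of 317 (23.3%, 18.8% to 28.4%) also had a UMI of any of the 10 EC markers in the control library, and 513 of 2149 nuclei without Tek (23.9%) did. In the treated library the counts were 56 of 215 (26.0%) and 428 of 1752 (24.4%). The intervals of nuclei with and without Tek overlapped. Free RNA can enter nuclei with and without Tek alike, so this comparison cannot measure leaked EC RNA. The part of leaked EC RNA in the Tek of fibroblasts was not tested.

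Tek was not even among fibroblasts. The cluster led by Cilp, with Pi16 and Cd248 among its leading genes, had 374 and 347 Tek CPM, and the cluster led by Rgs17 had 329 and 289 CPM. The cluster led by Inmt had 213 and 219 CPM. The small cluster led by Wif1 had only 4 and 7 Tek UMIs, or 25.7 CPM (6.99 to 65.7) and 40.2 CPM (16.2 to 82.8). The order of the 4 clusters was the same in both libraries, although the intervals of the Cilp-led and Rgs17-led clusters overlapped in both and those of the Rgs17-led and Inmt-led clusters in the treated library, and the Wif1-led cluster was at the T and B cell level.

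Mesothelial cells, which line the outer surface of the heart, also held Tek with little Tie1. They had 138 Tek CPM (114 to 167) in the control library and 158 CPM (135 to 184) in the treated library, and 7.33 (4.26 to 13.5) and 7.81 (4.94 to 12.96) UMIs of Tek for every UMI of Tie1. Their EC markers stood at a median of 3.19% and 3.42% of the EC level, and 1 of the 10, the VEGF receptor gene Kdr, reached 119.7% and 123.6% of it. Among thinned mesothelial nuclei with Tek, 10 of 26 (38.5%, 20.2% to 59.4%) and 14 of 34 (41.2%, 24.6% to 59.3%) also had a UMI of an EC marker, against 30.1% and 28.3% of those without Tek, with overlapping intervals. Kdr was among the markers counted, at 651 of 953 summed marker CPM in the control library, so these shares largely count Kdr. Glial cells had 8 Tek UMIs in 35 nuclei and 2 in 12 nuclei, too few to place them.

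**Figure D2:**
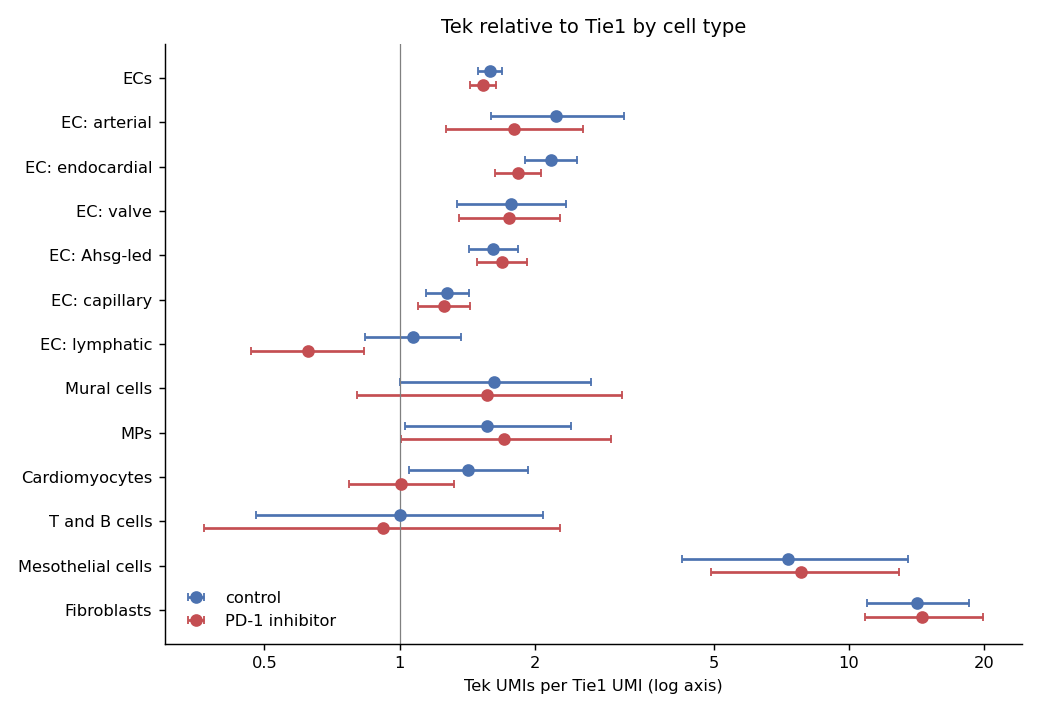
UMIs of Tek for every UMI of Tie1 by cell type and EC subtype on a log axis, with 1 point per library and exact binomial 95% intervals of counting error. Fibroblasts (14.2 and 14.6) and mesothelial cells (7.33 and 7.81) lie above every EC subtype in both libraries, and lymphatic ECs have the lowest ratio of the EC subtypes (1.07 and 0.625).

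Within the endothelium, Tek was lowest in lymphatic ECs, which drain fluid from the tissue. They had 531 CPM (446 to 627) in the control library and 389.7 CPM (309 to 485) in the treated library. Arterial ECs had 1039 and 934 CPM, endocardial ECs, which line the chambers, 997 and 896 CPM, and valve ECs 884 and 941 CPM. A subtype led by Ahsg, which carried no subtype name, had 817 and 770.2 CPM, and capillary ECs had 805 and 775 CPM. The Ahsg-led subtype held 2 of 7 endocardial markers, short of the 3 needed, with Npr3 among its leading genes. At resolution 0.5 a cluster led by Ahsg was named endocardial, with 1475 and 1560 nuclei against 582 and 664 here. The endocardial values may thus cover only a part of such nuclei. Only the lymphatic level lay apart from its neighbours in the order in both libraries, while the intervals of the other neighbouring subtypes overlapped.

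Tie1 followed another order. Capillary ECs had 631 CPM (581 to 685) in the control library and 616 CPM (557 to 679.7) in the treated library. The level of the control library lay apart from that of the next subtype in the order, the Ahsg-led one (506 CPM). It did not lie apart from all EC subtypes, since its interval overlapped that of lymphatic ECs. Lymphatic ECs had 497 CPM (415 to 590) and 624 CPM (520.2 to 741), which was not the lowest Tie1 level in either library. In the treated library it was the highest of the EC subtypes, with an interval that overlapped that of capillary ECs. Endocardial ECs had 458 and 488 CPM. The ratio of Tek to Tie1 UMIs was therefore higher in endocardial ECs, with 2.17 (1.90 to 2.49) and 1.83 (1.63 to 2.06), than in lymphatic ECs, with 1.07 (0.836 to 1.37) and 0.625 (0.467 to 0.833).

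**Figure D3:**
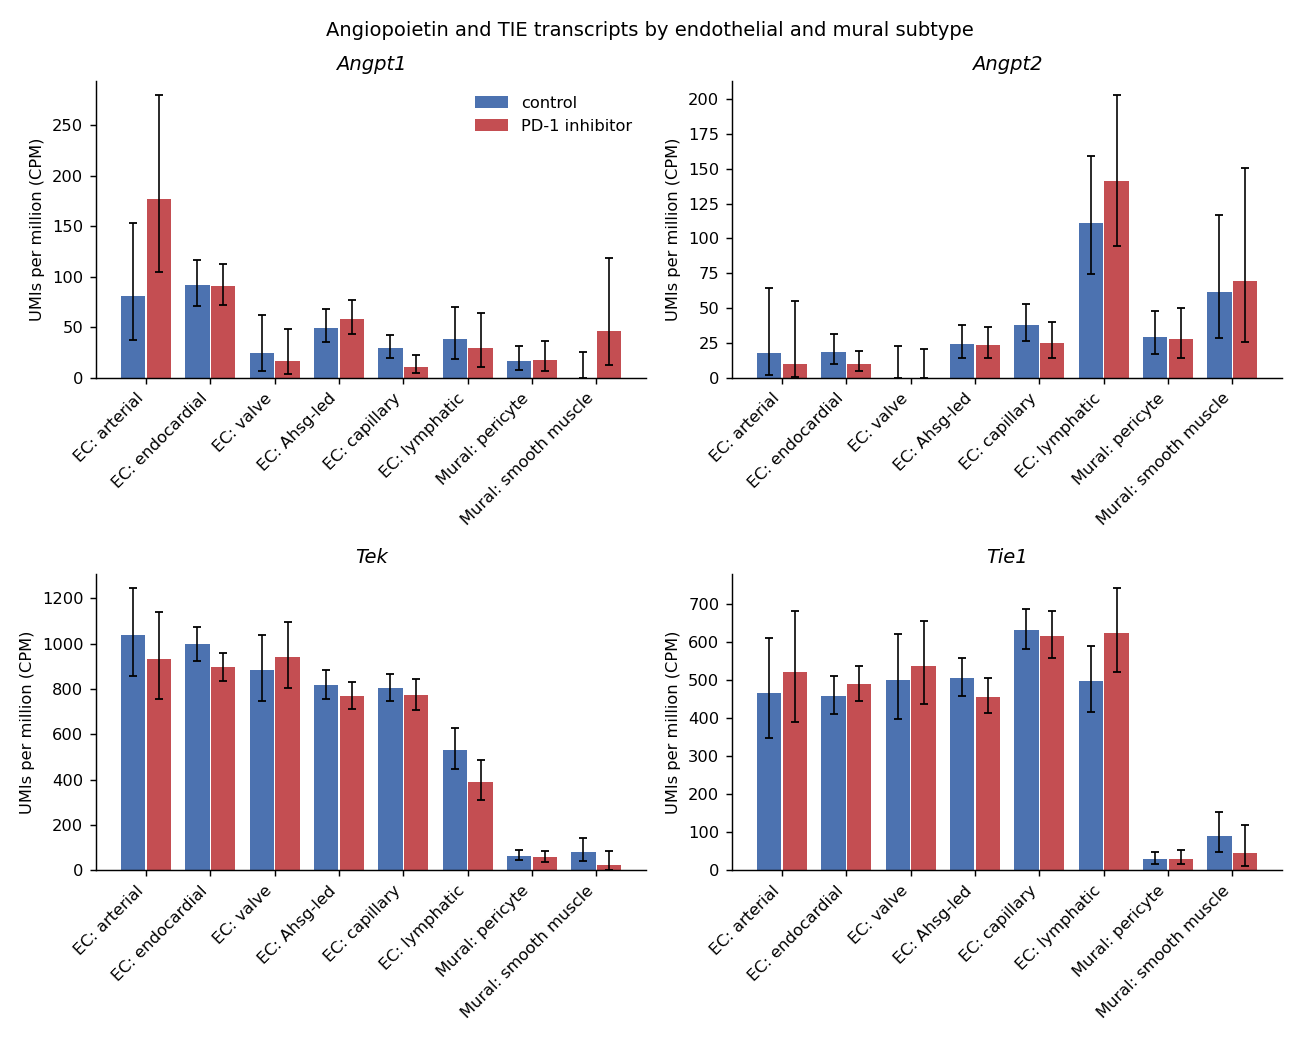
Levels of the 4 members in EC and mural subtypes in UMIs per 1000000 (CPM), with 1 bar per library and exact Poisson 95% intervals of counting error. Tek is lowest among ECs in the lymphatic subtype (531 and 389.7 CPM), where Angpt2 is highest (111 and 141 CPM).

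Angpt1, the activating ligand, was a gene of fibroblasts and cardiomyocytes. Control fibroblasts held 731 Angpt1 UMIs and treated ones 508, 52.6% and 52.1% of all Angpt1 UMIs, at 245 CPM (228 to 264) and 205 CPM (187 to 223). Cardiomyocytes held 382 and 243 UMIs, 27.5% and 24.9% of the total, at 157 CPM (142 to 174) and 119.8 CPM (105 to 136). T and B cells had 17 and 3 Angpt1 UMIs, or 38.3 CPM (22.3 to 61.4) and 10.9 CPM (2.24 to 31.8). Both main sources stood above that level in both libraries.

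The share of fibroblast nuclei with a UMI of Angpt1 was 17.4% in the control library and 14.8% in the treated library, and 9.45% and 7.37% after thinning. For cardiomyocytes it was 14.7% and 12.9%, and 5.46% and 4.41% after thinning. T and B cell nuclei had a thinned share of 1.21% and 0.368%. Adipocytes had 111 CPM (79.2 to 151) from 40 UMIs in the control library and 161 CPM (73.4 to 305) from 9 UMIs in only 16 nuclei of the treated library.

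Mural cells, the pericytes and smooth muscle cells that wrap vessels, were not a main source of Angpt1 in these nuclei. They had 9 and 11 Angpt1 UMIs, or 13.03 CPM (5.96 to 24.7) and 22.9 CPM (11.4 to 40.9), and pericytes alone had 16.5 and 17.8 CPM. Smooth muscle cells had 0 of 145930 UMIs in the control library, which allows up to 20.6 CPM, and 4 UMIs in the treated library. In the control library mural cells were thus at or below the T and B cell level. In the treated library their 22.9 CPM stood above the 10.9 CPM of T and B cells, a level from 3 UMIs, and the intervals overlapped.

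ECs had 52.0 CPM of Angpt1 (44.1 to 60.9) in the control library, within the interval of T and B cells, and 57.2 CPM (48.8 to 66.6) in the treated library, above it. Endocardial ECs stood higher, with 91.4 CPM (70.5 to 117) and 90.8 CPM (72.2 to 113). Arterial ECs had 9 and 18 UMIs, or 80.6 CPM (36.9 to 153) and 177 CPM (104.8 to 279.6). Capillary ECs were lowest among the larger EC subtypes, with 29.2 CPM (19.2 to 42.5) and 10.8 CPM (4.34 to 22.2).

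The level of Angpt1 was not even among clusters, and the clusters of highest level did not hold most of its UMIs. Of the 731 Angpt1 UMIs of control fibroblasts, the Inmt-led cluster held 236 and the Rgs17-led cluster 356. Among fibroblasts the Inmt-led cluster had the highest Angpt1 level, 423 CPM (371 to 481) and 410.5 CPM (354 to 473), and the Rgs17-led cluster had 256 and 199 CPM. The Cilp-led cluster, highest in Tek, had 127 CPM (104 to 153) and 100.05 CPM (81.2 to 122) of Angpt1. The Inmt-led and Cilp-led clusters thus stood in opposite order for ligand and receptor, in both libraries. The Wif1-led cluster, which had hardly any Tek, had 179.6 and 269.9 CPM of Angpt1.

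Among cardiomyocytes a small cluster led by Mybphl, with the atrial genes Myl4, Sln, Nppa, Bmp10 and Myl7, had the highest Angpt1 level. It held 87 Angpt1 UMIs in 41 nuclei of the control library, or 1442 CPM (1155 to 1778), and 37 UMIs in 47 nuclei of the treated library, or 436 CPM (307 to 601). Few nuclei made up these sums, since 19 and 12 nuclei had any UMI and 1 nucleus held 25 and 12 of them. The cluster led by Acta1 had 59.0 CPM (43.1 to 79.0) and 57.3 CPM (42.6 to 75.6).

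**Figure D4:**
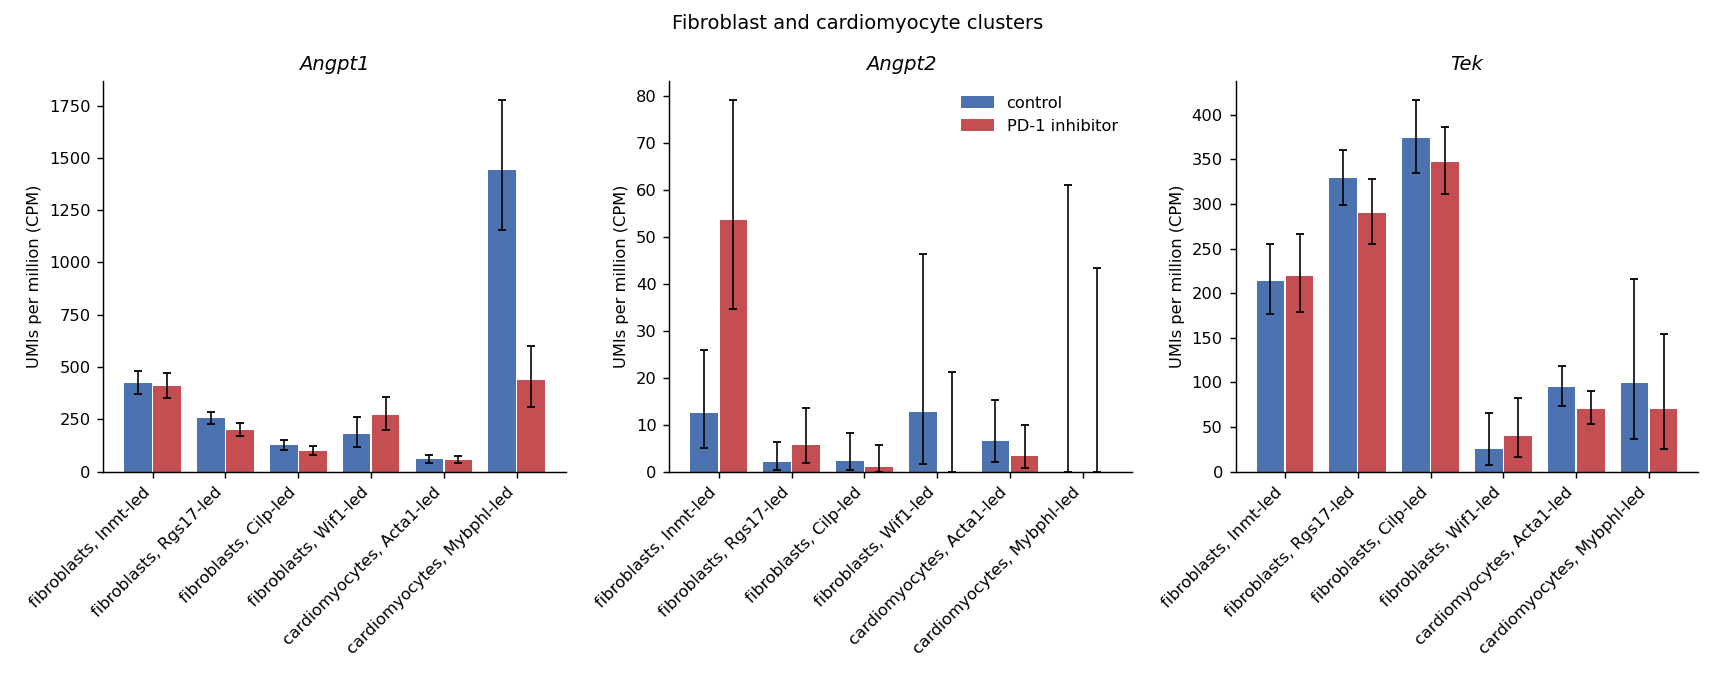
Levels of Angpt1, Angpt2 and Tek in the fibroblast clusters and 2 cardiomyocyte clusters, named by their leading gene, in UMIs per 1000000 (CPM), with 1 bar per library and exact Poisson 95% intervals of counting error. The Mybphl-led cardiomyocytes have the highest Angpt1 level (1442 and 436 CPM), and the Inmt-led fibroblasts hold most of the Angpt2 of fibroblasts in the treated library (53.7 CPM).

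Angpt2 was rare, with 146 control and 130 treated UMIs, and most of them lay in ECs and mural cells. ECs had 33.1 CPM (26.8 to 40.3) and 26.0 CPM (20.5 to 32.6) and held 67.1% and 57.7% of the Angpt2 UMIs. Mural cells had 36.2 CPM (23.4 to 53.4) and 35.4 CPM (20.6 to 56.6). The gene around it, Mcph1, was 20.3 CPM there in the control library and 2.08 CPM in the treated library. T and B cells were lower, with 1 UMI in the control library (2.26 CPM, 0.06 to 12.6) and 0 in the treated library, which allows up to 10.9 CPM.

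Lymphatic ECs had the highest Angpt2 level in both libraries. They held 29 UMIs in each library, at 111 CPM (74.2 to 159) and 141 CPM (94.6 to 203), found in 16 of 235 nuclei (6.81%) and 18 of 158 nuclei (11.4%), with 2.55% and 6.96% after thinning. Smooth muscle cells followed with 9 and 6 UMIs, or 61.7 and 69.3 CPM, and their interval overlapped that of lymphatic ECs. Capillary ECs had 37.8 CPM (26.4 to 52.6) and 24.6 CPM (14.1 to 40.0), below the lymphatic level beyond counting error. Valve ECs had 0 UMIs in 114 and 94 nuclei, which allows up to 18.3 and 16.6 CPM.

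Between the libraries the receptors hardly differed in ECs. The log2 ratio of PD-1 inhibitor over control was -0.08 for Tek (-0.16 to 0.01) and -0.03 for Tie1 (-0.13 to 0.08). Angpt1 had 0.14 (-0.19 to 0.46) and Angpt2 -0.34 (-0.80 to 0.10). Of the 4 members, each with at least 50 UMIs in ECs, 0 differed by 1.5-fold or more, where 10.6% of 10692 genes with 50 UMIs did, 6.08% being higher and 4.55% lower. The intervals of Tek, Tie1 and Angpt1 lay wholly within 1.5-fold, whereas that of Angpt2 reached past it.

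Gene length moved with the ratios. Genes were split into 5 equal bins by span. In ECs the median log2 ratio was 0.22 for the bin of the shortest genes and -0.17 for that of the longest, to which Tek and Angpt1 belong, and 0.09 for the bin of Tie1. On the length scale, on which the median of a gene's own bin is subtracted, the Tek ratio was 0.092. The part of gene length in these ratios was not tested.

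Within EC subtypes, Tek in endocardial ECs had -0.15 (-0.30 to -0.01) from 709 and 809 UMIs, which became 0.014 on the length scale. In lymphatic ECs the Tek ratio was -0.44 (-0.86 to -0.04) from 139 and 80 UMIs, and -0.21 on the length scale, while Tie1 there was 0.33 (-0.03 to 0.69) from 130 and 128 UMIs. Angpt1 in capillary ECs was -1.36 (-2.88 to -0.20) from only 27 and 7 UMIs, and -0.05 when clusters were drawn at resolution 0.5. Over the EC and pericyte subtypes there were 17 pairs of member and subtype with at least 50 UMIs, of which 1 passed 1.5-fold, Angpt2 in capillary ECs with -0.59 (-1.57 to 0.27). Over the alternatives it lay between -0.69 and -0.32, and with at least 500 genes per nucleus, among others, it fell short of 1.5-fold. Among all genes of capillary ECs 17.1% passed 1.5-fold, 7.49% being lower. In the subtypes where no member passed, the share of all genes that did was 15.7% in endocardial, 13.4% in Ahsg-led, 23.4% in arterial, 22.8% in lymphatic and 16.1% in valve ECs, and 18.2% in pericytes.

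Fibroblasts of the treated library had less Angpt1, at a log2 ratio of -0.26 (-0.43 to -0.10), and Tek had -0.11 (-0.26 to 0.03). None of the 3 members with 50 UMIs in fibroblasts passed 1.5-fold, where 9.7% of genes did. The bin of the longest genes had a median of -0.17 in fibroblasts, and on the length scale Angpt1 was -0.092. Angpt1 was also lower in cells at background levels, with 17 and 3 UMIs in T and B cells (-1.64, -4.23 to -0.03) and 20 and 5 in MPs (-1.49, -3.36 to -0.13), and the part of free RNA in these differences was not tested. By fibroblast cluster, the Angpt1 ratio was -0.36 (-0.63 to -0.10) in the Rgs17-led and -0.34 (-0.75 to 0.06) in the Cilp-led cluster. It was -0.04 (-0.33 to 0.24) in the Inmt-led and 0.58 (-0.12 to 1.32) in the Wif1-led cluster. The intervals of these clusters overlapped, and the gaps between them were not tested.

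Angpt2 had 14 UMIs in control fibroblasts (4.70 CPM, 2.57 to 7.89) and 31 in those of the treated library (12.5 CPM, 8.48 to 17.7). The log2 ratio was 1.38 (0.46 to 2.43), and with 45 UMIs in all the pair stayed under the 50 needed to be counted. The Inmt-led cluster held 7 and 25 of these UMIs, in 5 of 440 and 15 of 357 nuclei, and 1 nucleus of the treated library held 5. Without that cluster fibroblasts had 7 and 6 UMIs, or 2.89 and 2.97 CPM, and the log2 ratio was 0.06 (-1.81 to 1.84).

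Cardiomyocytes of the treated library also had less Angpt1, at a log2 ratio of -0.39 (-0.63 to -0.15). Without the Mybphl-led cluster it was -0.23 (-0.49 to 0.03), from 124 and 106 CPM, and the bin of the longest genes had a median of -0.27. In that cluster alone it was -1.71 (-2.32 to -1.15), from the few nuclei named above. The Acta1-led cluster had -0.04 (-0.65 to 0.57), an interval that held 0.

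Tie1 in cardiomyocytes differed most among the pairs of member and cell type with 50 UMIs, with 76 UMIs (31.2 CPM, 24.6 to 39.1) in the control library and 113 (55.7 CPM, 45.9 to 67.0) in the treated library. The log2 ratio was 0.83 (0.40 to 1.27), with 1.49 after thinning and 0.57, short of 1.5-fold, as a mean over nuclei. Of the 3 members with 50 UMIs in cardiomyocytes it was the only 1 that passed 1.5-fold, where 16.3% of 9225 genes did, 8.18% being higher. The level lay within the interval of T and B cells in both libraries. The summed level of the 10 EC markers in cardiomyocytes was 521 CPM in the control library and 699.7 CPM in the treated library. All 10 markers were detected in both. In the Acta1-led cluster Tie1 had 57.7 and 91.8 CPM (log2 ratio 0.66, 0.12 to 1.23), whereas the summed markers had 1115 and 1079 CPM. The Mybphl-led cluster had 0 and 8 Tie1 UMIs, and 530 and 1379 CPM of the summed markers. The part of EC RNA in the Tie1 difference was not tested. Tek in cardiomyocytes had 44.4 and 56.2 CPM, also within the T and B cell intervals, and a log2 ratio of 0.34 (-0.05 to 0.73), which was -0.24 after thinning and 1.01 with at most 5% mitochondrial UMIs.

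In mesothelial cells Angpt1 was 44.0 CPM (30.6 to 61.2) and 27.9 CPM (18.7 to 40.1) from 35 and 29 UMIs, or -0.65 on the log2 scale (-1.42 to 0.10). It passed 1.5-fold, as 11.8% of genes in these cells did, 6.2% being lower, but its interval held 0. Without the barcodes found in both libraries it was -0.42, short of 1.5-fold. Tek had 0.19 (-0.16 to 0.55) in the same nuclei. Mural cells and MPs had 1 and 2 members with 50 UMIs, none of which passed 1.5-fold, against 16.9% and 13.8% of all genes.

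**Figure D5:**
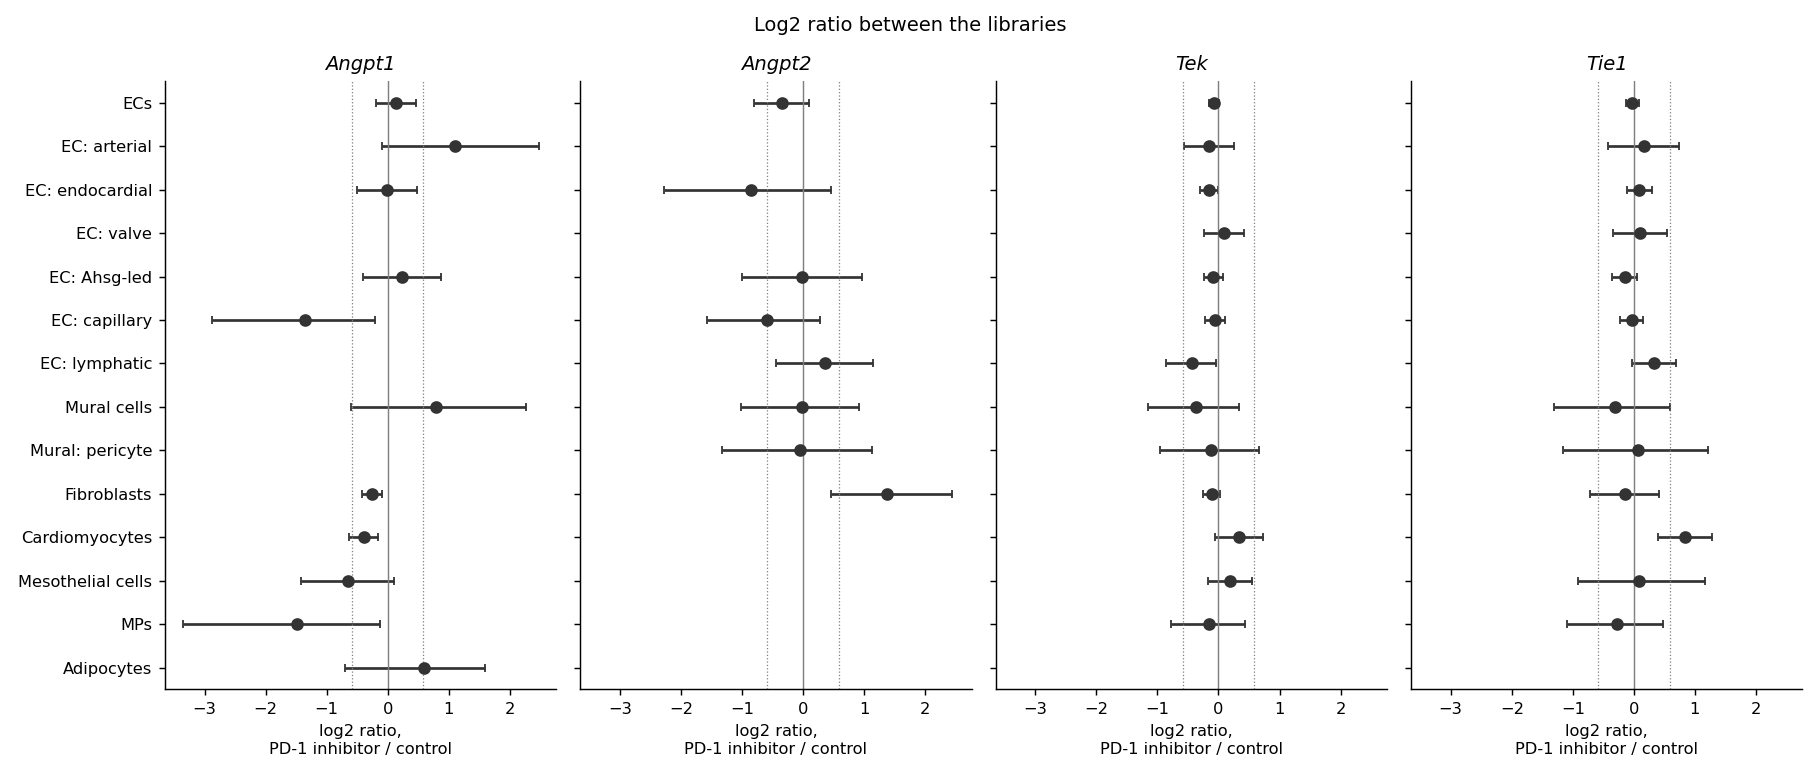
Log2 ratio of PD-1 inhibitor over control for the 4 members by cell type and subtype, drawn where both libraries together held at least 20 UMIs, with exact 95% intervals of counting error and dotted lines at 1.5-fold. Tek and Tie1 lie near 0 in ECs (-0.08 and -0.03), and Tie1 in cardiomyocytes (0.83) and Angpt2 in fibroblasts (1.38) lie to the right.

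The proteins that act on TIE receptors were described in ECs from a list of 8 genes. All 8 had at least 50 UMIs, 0 passed 1.5-fold in either direction beside 10.6% of all EC genes, and the median log2 ratio was -0.08 beside 0.01 for all genes. Ptprb, which encodes the phosphatase VE-PTP that restrains TIE2, was 1651 CPM in the control library and 1446 in the treated library, or -0.19 on the log2 scale (-0.25 to -0.13). Among the integrin genes Itgav had -0.42 (-0.65 to -0.21), Itga5 -0.21 (-0.40 to -0.02), Itgb3 -0.10 (-0.57 to 0.36) and Itgb1 -0.06 (-0.16 to 0.04). Mmp14, a membrane protease, was 0.28 (0.02 to 0.54), Svep1, a matrix protein that binds TIE1, 0.20 (-0.43 to 0.83), and Cdh5, VE-cadherin, 0.04 (-0.06 to 0.13).

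Downstream of TIE2, 19 of 21 genes for adaptors and PI3K-AKT signalling had 50 UMIs in ECs. None of them passed 1.5-fold, beside 10.6% of all EC genes, and their median was -0.11, or 0.00 on the length scale. The lowest were Pik3cb, a catalytic PI3K subunit, with -0.50 (-0.87 to -0.15), Grb14 with -0.48 (-1.18 to 0.20) and Tnip2 with -0.38 (-0.69 to -0.07). The highest were Foxo4 with 0.27 (-0.37 to 0.93), Foxo1 with 0.17 (-0.03 to 0.37) and Akt1 with 0.13 (-0.13 to 0.38).

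FOXO factors are held back by AKT, and of 10 of their target genes 2 were 1.5-fold lower in ECs and 0 were higher, beside 4.55% and 6.08% of all EC genes, with a median of -0.03. Those were Irs2, an insulin receptor substrate, with 57 and 17 UMIs and a ratio of -1.68 (-2.58 to -0.90), and Bcl6, a transcriptional repressor, with 58.1 and 25.0 CPM and -1.21 (-1.63 to -0.81). Pdk4 had -0.35 (-1.03 to 0.31). Btg1 had 0.50 (0.23 to 0.78), Sesn3 0.23 (-0.19 to 0.65) and Cdkn1b 0.23 (-0.04 to 0.50), so the targets did not move one way. After thinning, 1 of the 10 passed as lower.

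Of 15 factors that act upstream of the TIE and angiopoietin genes, 14 had 50 UMIs, 1 was 1.5-fold lower and 0 were higher, beside the same 4.55% and 6.08%, with a median of -0.17. The lower one was Fli1, an ETS factor, with 677 and 424 CPM and -0.68 (-0.78 to -0.57), which fell short of 1.5-fold on the length scale and with an equal mix of EC clusters. Ets1 had -0.26 (-0.40 to -0.11) and Hif1a -0.24 (-0.56 to 0.08). The highest were Gata2, a GATA factor, with 180.2 and 232 CPM and 0.37 (0.20 to 0.53), Tal1 with 0.24 (0.00 to 0.47) and Epas1, which encodes HIF-2α, with 0.14 (0.02 to 0.26).

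Relatives of the angiopoietins were found mostly in fibroblasts, mural cells and adipocytes. Angptl2 was 245.8 and 316 CPM in fibroblasts, 284 and 385 CPM in mural cells, 51.0 and 38.5 CPM in ECs and 29.6 and 40.4 CPM in cardiomyocytes. Angptl4, an inhibitor of lipoprotein lipase, was 659 CPM in adipocytes of the control library and 392 CPM in the 16 adipocyte nuclei of the treated library, and had 26 and 5 UMIs in ECs. Angptl7 and Angptl1 were mostly in fibroblasts, with 29.2 and 39.1 CPM and 24.2 and 30.2 CPM. Angpt4, the third angiopoietin, had 12 and 19 UMIs in fibroblasts and 2 and 0 in ECs, and Angptl6 had at most 10 UMIs in any of these cell types in 1 library. In ECs 2 of the 7 relatives had 50 UMIs, with a median of -0.32 and 0 past 1.5-fold, beside 10.6% of all EC genes. These were Angptl2 with -0.40 (-0.77 to -0.04) and Angptl1 with -0.23 (-1.08 to 0.60). Angptl4, under 50 UMIs, had -2.23 (-4.08 to -0.94) in ECs. With a limit of 20 UMIs, 1 relative passed 1.5-fold as lower.

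The genes most like each member were ranked by the correlation of log2(CPM + 1) over the 19 clusters with at least 50 nuclei in each library, taking the lower of the r values of the libraries. The clusters of 1 library share its depth and free RNA, so these are descriptions. Tie1 was most like Cdh5 (0.93), Shank3 (0.91), Rassf9 (0.91), Icam2 (0.91) and Myct1 (0.90), of which Cdh5 and Icam2 are EC adhesion genes. Tek was most like Thbd (0.91), Klf4 (0.88), Ramp2 (0.86), Ece1 (0.86) and Ephb4 (0.85), and Tie1 came 69th on its list among 11481 genes. Angpt2 was most like Cped1 (0.73), Sept4 (0.69), Prex2 (0.67), Gucy1b1 (0.66) and Dock6 (0.66). Angpt1 had no close partner, the nearest being Dhtkd1 (0.66), P3h1 (0.64), Kctd1 (0.64), Myrip (0.63) and Plekha4 (0.62).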

How the data were processed

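Nuclei of heart tissue were captured with the GEXSCOPE single nucleus kit. For each library the authors deposited raw UMI counts, with no barcode under 500 UMIs. The submitters' processing notes name the builds GRCm38 and mm10, and the aligner, the counting of introns and the strand setting are not given in the sources used here. If introns were counted, long genes gain, so the levels of Tek and Tie1 were compared with each other only per length. The control and treated matrices held 10197 and 7967 barcodes with 13177525 and 10875248 UMIs.

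Barcodes with fewer than 200 genes or more than 20% mitochondrial UMIs were dropped (83 and 15), as were doublets called by Scrublet in scanpy 1.11.5 (592 and 308, or 5.85% and 3.87%). Values scaled to 10000 UMIs were logged, and 2000 variable genes without the members, 30 principal components and 15 exact neighbours gave Leiden clusters at resolution 1. A cluster took the type of which it held the largest share of markers, with at least 3, and 1 cycling cluster stayed unnamed. The clustering code and the thresholds for unnamed clusters were chosen after the clusters were seen. UMIs were summed by cell type and library and given per 1000000. Intervals are exact Poisson (levels), Clopper-Pearson (shares) and conditional binomial (ratios, with 0.5 UMI added), and were tested on simulated data. Ratios are drawn from 20 UMIs, calls past 1.5-fold need 50, and 0 UMIs are given with the level of 3.

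The members and lists were chosen with earlier results of these data known. Named are the relatives, the TIE partners, the 3 highest and 3 lowest genes of each other list and the 5 genes most like each member. Single fibroblast and cardiomyocyte clusters were picked after their values were seen. A relative and a cardiomyocyte cluster are not reported here. The alternatives were 500 genes, 5% mitochondrial UMIs, doublets kept, resolutions of 0.5 and 2, separate clustering, the members kept for clustering, a mean over nuclei, thinning to 500 UMIs, a denominator without mitochondrial and ribosomal genes, 1 UMI added, 20 UMIs for lists, an equal mix of clusters, and centring on all genes or those of like length. Keeping the members could change nothing, since 0 of them were among the variable genes of the main clustering. Leaving out shared barcodes, the Mybphl-led cluster or the Inmt-led cluster was added after seeing the data.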

Additional observations from a re-analysis of the deposited data

How the results depend on the processing

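The ratio between the libraries in ECs was moved past its counting interval by thinning for Tie1, to -0.17, and by centring on genes of like length for Tek, to 0.092. Centring on genes of like length also brought Angpt1 to -0.092 in fibroblasts and to -0.12 in cardiomyocytes, and turned the Tek ratio of endocardial ECs to 0.014. The ratio of Angpt2 in fibroblasts fell to 0.06 without the Inmt-led cluster. Among levels, thinning gave 765 CPM for Tek in ECs of the treated library and 565 CPM for Tie1 in ECs of the control library, and a mean over nuclei gave 758 CPM for Tek in ECs of the treated library. Shares of nuclei with a UMI fell on thinning in the control and the treated library, to 9.45% and 7.37% for Angpt1 in fibroblasts and, in ECs, to 1.32% and 1.24% for Angpt2, 28.4% and 27.6% for Tek and 21.7% and 19.7% for Tie1. With at least 500 genes per nucleus they were 19.2% and 16.9% for Angpt1 in fibroblasts, 52.1% and 50.7% for Tek in ECs and 40.2% and 40.5% for Tie1 in ECs. With doublets kept, ECs held 63.8% and 66.7% of the Tek UMIs and 82.6% and 83.6% of the Tie1 UMIs. With at most 5% mitochondrial UMIs they held 88.0% and 90.1% of the Tie1 UMIs, and fibroblasts held 55.9% of the Angpt1 UMIs of the treated library. The cause of these shifts was not tested, apart from thinning and the filter on genes, which by construction change how many UMIs a nucleus can show. Another 118 alternative values of the main ratios and 85 of the main levels stayed within the counting intervals. These counts take in the setting with the members kept for clustering, which could not differ from the main one.

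No paired analysis was possible because each condition has 1 library and no result comes from a test. Depth limits Angpt2 most, with 146 and 130 UMIs in all, and the adipocytes, glial cells, arterial and valve ECs and smooth muscle cells, whose intervals are wide. How far hearts of 1 group differ is not measured, and condition and library cannot be told apart.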
